A study of Mus musculus with 32 samples.

Results

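The 10 listed Hoxa genes, *Hoxa2*, *Hoxa3*, *Hoxa4*, *Hoxa5*, *Hoxa6*, *Hoxa7*, *Hoxa9*, *Hoxa10*, *Hoxa11* and *Hoxa13*, were taken by symbol from the 55806 gene identifiers of 4 count tables of developing mouse kidney, and each of the 10 was present in all 4 tables. They lie on the minus strand of chromosome 6 between chr6:52162417 (the 3′ end of *Hoxa2*) and chr6:52260880 (the 5′ end of *Hoxa13*) in GRCm38, the assembly also called mm10. The series comprised 32 polyadenylated RNA libraries of C57BL/6J embryos in 11 groups, and the question put to these genes was how their RNA levels differed between genotypes, stages and cell lineages. Whole kidneys of embryonic stage E18.5 had the genotypes Six2-TGCtg/+;Enl+/+ (ENL-WT), Six2-TGCtg/+;EnlT1/+ (Six2-ENL-T1) and Six2-TGCtg/+;EnlT3/+ (Six2-ENL-T3), with 2 libraries each. Cells sorted for the tdTomato reporter had the Six2 genotypes ENL-WT and Six2-ENL-T1 at E14.5 and at E18.5, with 3 libraries per group. Sorted Foxd1 cells of E18.5 had the genotypes Foxd1GC/+;Enl+/+ (ENL-WT) and Foxd1GC/+;EnlT1/+ (Foxd1-ENL-T1), with 4 libraries each, and whole Foxd1 kidneys of E18.5 had the same genotypes with 3 libraries each. Controls are the ENL-WT libraries of the same Cre line and stage, and T1 mutants the Six2-ENL-T1 or Foxd1-ENL-T1 libraries.

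The T1 and T3 alleles are a small insertion and a small deletion in the acetyl-lysine reader domain of ENL, and they are heterozygous and made by Cre recombination at the endogenous gene. Cre came from the Six2-TGC transgene, active in nephron progenitors, or from the Foxd1-GC allele, active in stromal progenitors, and the controls carried the same Cre. The sorted groups also carried the LSL-tdT reporter, and the study's methods describe the mutant alleles as conditional. Six2-TGC is a bacterial artificial chromosome transgene for which aberrant Six3 expression in nephron progenitors has been described, and Foxd1-GC inactivates 1 copy of Foxd1, so these limits were shared by mutants and controls. A whole kidney also holds the cells that Cre did not reach. In these bulk libraries, fewer cells of a type and less RNA per cell cannot be told apart.

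Hox genes encode homeodomain transcription factors that give cells their position along the body axis. In each cluster the genes stand in 1 orientation, and genes at the 3′ end are used earlier and further forward in the embryo than genes at the 5′ end. *Hoxa11* belongs to the paralogue group that is required for the metanephric kidney to form, *Hoxa13* normally acts in digits, hindgut and the lower genitourinary tract, and ENL, a reader of acetylated histones that brings elongation factors to genes, is known for sustaining Hoxa genes in leukaemia.

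The members are shown by the 250 bases before 3 RefSeq start sites on GRCm38.p6, chosen because *Hoxa5* was the member with the highest level per length in Six2-ENL-T1 cells of E18.5, *Hoxa10* the member with the highest level in most groups, and *Hoxa13* the member nearest to 0 in controls. Each sequence is on the minus strand, 5′ to 3′, and capitals mark CG dinucleotides, the substrate of DNA methylation and the base of CpG islands. The windows are chr6:52204588-52204837 for *Hoxa5*, chr6:52234940-52235189 for *Hoxa10* and chr6:52260881-52261130 for *Hoxa13*. None of them holds an annotated exon base.
Hoxa5: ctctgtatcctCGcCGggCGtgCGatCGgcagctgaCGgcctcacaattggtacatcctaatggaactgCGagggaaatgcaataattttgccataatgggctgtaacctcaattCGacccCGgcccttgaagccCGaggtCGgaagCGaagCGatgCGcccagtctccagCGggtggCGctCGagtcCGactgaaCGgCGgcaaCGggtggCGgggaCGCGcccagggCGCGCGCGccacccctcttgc
Hoxa10: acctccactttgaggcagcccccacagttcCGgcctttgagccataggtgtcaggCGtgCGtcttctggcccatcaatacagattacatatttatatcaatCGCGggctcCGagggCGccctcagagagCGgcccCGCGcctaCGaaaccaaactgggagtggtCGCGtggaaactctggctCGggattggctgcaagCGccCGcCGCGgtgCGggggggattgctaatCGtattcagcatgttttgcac
Hoxa13: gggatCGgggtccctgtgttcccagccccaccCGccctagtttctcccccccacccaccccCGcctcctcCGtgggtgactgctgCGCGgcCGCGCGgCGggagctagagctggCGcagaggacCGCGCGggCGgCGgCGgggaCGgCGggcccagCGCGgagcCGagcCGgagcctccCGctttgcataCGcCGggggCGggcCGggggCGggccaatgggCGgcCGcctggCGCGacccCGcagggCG
The *Hoxa13* window held 35 CG dinucleotides, and 2.98% of all 32841 RefSeq windows of this length held as many. The *Hoxa5* window held 28, a number reached by 7.61% of all windows, and the *Hoxa10* window held 20, reached by 17.95%. Over the 10 windows of the 9 members with an entry the median was 15.5 CG, against 6 over all windows. Motifs were sought on either strand. CCAAT was found in 5 of the 10 windows (33.9% of all windows hold it). TATAAA was found in 1 of the 10, the *Hoxa10* window shown (12.4% of all windows hold it). There it lies on the opposite strand and reads TTTATA in the sequence printed. A second *Hoxa10* start site, at chr6:52240855-52241104, had a window with 7 CG.

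Total counts ran from 67137194 to 157266455 in whole-kidney libraries, from 76510702 to 137888792 in sorted Six2 cells, and from 2557443 to 3508381 in sorted Foxd1 cells, so members with few counts were measured least precisely in the last. *Mllt1*, the gene of ENL, lay between 27.2 and 233 CPM (counts scaled to library size) over the 32 libraries, and counts per gene cannot separate its mutant from its wild-type transcript. The sorted cells carried the markers of their labels. At E18.5 the 5 nephron progenitor markers summed to 422 to 547 CPM in ENL-WT Six2 cells against 70.4 to 128 CPM in ENL-WT Foxd1 cells. The 8 stroma markers summed to 317 to 557 CPM in the same Six2 cells against 6869 to 9539 CPM in the Foxd1 cells. In ENL-WT Six2 cells of E14.5 the nephron progenitor sum was 1459 to 1699 CPM. Replicate libraries of a group correlated at 0.974 to 0.993 (Pearson's r of log2 CPM over genes), and none was a copy of another. The labels do not say whether replicates are separate embryos, so p-values measure the spread between libraries.

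In the controls the cluster was dominated by its 5′ middle. Levels per length, in CPM per kb of exon that no other annotated gene shares, were highest for *Hoxa10*, a gene of the lumbar axis and the uterus, in all 5 control groups. *Hoxa10* stood at 95.8 ± 6.97 CPM per kb (SD, n = 3) in ENL-WT Six2 cells of E14.5, which was 48.2% ± 1.3 of the sum over the 10 genes. Its share was 47.6% ± 1.7 (SD, n = 4) in ENL-WT Foxd1 cells. In ENL-WT Six2 cells of E18.5 its share was lower, at 30.8% ± 0.77 (SD, n = 3).

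*Hoxa11* came next in both control groups with the largest *Hoxa10* shares, with 53.4 ± 3.37 CPM per kb (SD, n = 3) in Six2 cells of E14.5 and 59.6 ± 6.61 (SD, n = 4) in Foxd1 cells. In Six2 cells of E18.5, *Hoxa5*, which patterns the neck, ribs and lung, took the second place with 18.49 ± 2.15 CPM per kb (SD, n = 3), and *Hoxa11* and *Hoxa9*, with 12.8 ± 1.37 and 12.2 ± 2.26 CPM per kb, did not differ beyond the ranges of their libraries. The 3′ genes *Hoxa2*, *Hoxa3* and *Hoxa4* were at 1.06 to 2.79 CPM per kb in the sorted controls. *Hoxa13* was last in each control group, at 0.00419 to 0.06 CPM per kb.

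**Figure D1:**
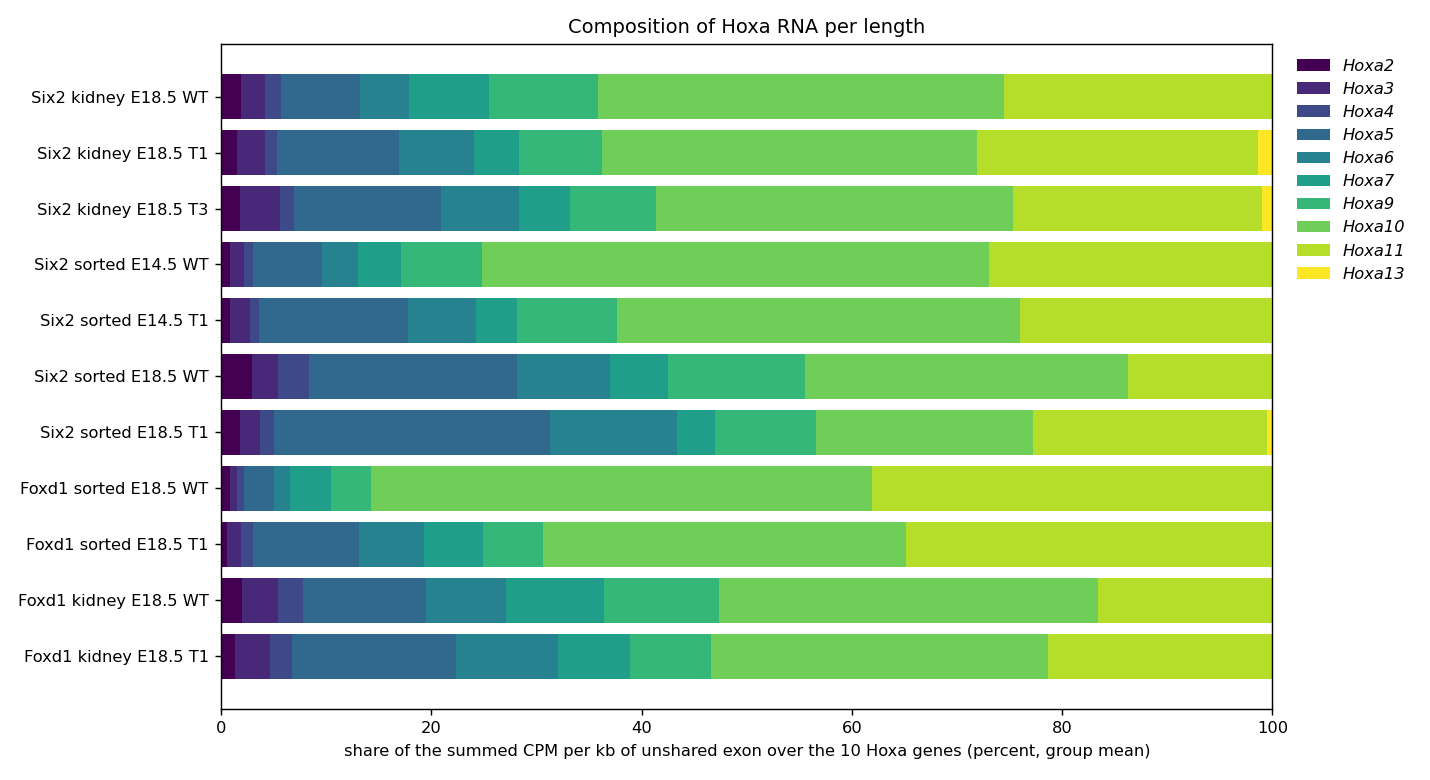
Share of each Hoxa gene in the summed level per length of the 10 genes (percent, mean of the libraries of a group), with 1 bar per group and the genes coloured from the 3′ to the 5′ end. *Hoxa10* makes up 48.2% in ENL-WT Six2 cells of E14.5 and 20.7% in Six2-ENL-T1 cells of E18.5, where *Hoxa5* makes up 26.3%.

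In Six2-ENL-T1 cells of E18.5 the order was another one. *Hoxa5* was first with 135 ± 7.86 CPM per kb (SD, n = 3), 26.3% ± 1.1 of the sum, followed by *Hoxa11* with 115 ± 2.44 and *Hoxa10* with 106 ± 3.22 CPM per kb, and the ranges of these 3 neighbours did not overlap. In Foxd1-ENL-T1 cells *Hoxa11* and *Hoxa10* had 129 ± 10.7 and 128 ± 5.46 CPM per kb (SD, n = 4) and overlapped. When all exon bases were used as length, *Hoxa10* stood above *Hoxa11* in both groups, because *Hoxa11* shares 34.98% of its exon length with the antisense gene *Hoxa11os*. The first place of *Hoxa5* in Six2-ENL-T1 cells of E18.5 held with either length.

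In sorted Six2 cells of E14.5, 9 of the 10 genes were called higher in Six2-ENL-T1 than in ENL-WT cells, where 4.11% of all 22387 tested genes were called higher. A gene was called when its fold change exceeded 1.5 at an adjusted p below 0.05. The median log2 fold change was 0.95 over the members and 0.00 over all tested genes. *Hoxa13* passed the low-count filter through the mutant libraries alone, so the count and the median are descriptions, and 8 of the other 9 genes were called. The largest changes apart from *Hoxa13* were those of *Hoxa5* and its neighbour *Hoxa6*, and the smallest was that of *Hoxa10*.

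The control libraries of E14.5 held *Hoxa5* at 24.8, 23.2 and 25.3 CPM, and the T1 mutants at 83.0, 92.4 and 94.4 CPM. All 3 mutant libraries were above all 3 control libraries. The log2 fold change was 1.89 (SE 0.07), a 3.72-fold rise (edgeR's quasi-likelihood test, Benjamini-Hochberg adjusted p = 5e-06). *Hoxa6*, a thoracic patterning gene, had 5.42 to 6.16 CPM in the controls and 17.5 to 20.5 CPM in the T1 mutants (log2 fold change 1.74, SE 0.10).

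*Hoxa10* had 297, 339 and 303 CPM in the controls and 428, 423 and 422 CPM in the T1 mutants of E14.5. The groups did not overlap, but the log2 fold change of 0.45 (SE 0.05) was under the fold threshold, although edgeR's quasi-likelihood test gave a Benjamini-Hochberg adjusted p = 0.00106. *Hoxa11* had 74.3, 84.3 and 79.7 CPM in the controls and 123, 120 and 117 CPM in the T1 mutants. Its log2 fold change was 0.61 (SE 0.06), and without ENL-WT replicate 1 it was 0.57 and no longer called. The other called genes, *Hoxa2*, *Hoxa3*, *Hoxa4*, *Hoxa7* and *Hoxa9*, had log2 fold changes of 0.70 to 1.27. For each of the 10 genes every mutant library was above every control library, a pattern seen in 14.7% of tested genes.

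*Hoxa13* was at the edge of detection in controls. At E14.5 the controls gave it 3, 0 and 1 counts, against 158, 90 and 87 counts in the T1 mutants. Summed over libraries and scaled to depth, the ratio was 82.9 (95% exact interval 32.1 to 306, counting error only). In levels this was 0.6249 to 1.11 CPM in the mutant, which kept *Hoxa13* the lowest of the 10 genes per length, at 0.0989% ± 0.032 of the sum.

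In sorted Six2 cells of E18.5, all 10 genes were called higher in Six2-ENL-T1, where 6.14% of 22685 tested genes were called higher. The median log2 fold change was 2.09 over the members and 0.02 over all tested genes. Here too *Hoxa13* passed the low-count filter through the mutant libraries, and all 9 of the other genes were called. The summed level of the 10 genes was 251 ± 31.8 CPM in the controls and 1214 ± 19.0 CPM in the T1 mutants (SD, n = 3).

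*Hoxa11* changed most among the 9 genes apart from *Hoxa13*. It had 17.5, 18.1 and 21.3 CPM in the controls and 170, 168 and 175 CPM in the T1 mutants, with no overlap. The log2 fold change was 3.17 (SE 0.08), a 9.02-fold rise (edgeR's quasi-likelihood test, Benjamini-Hochberg adjusted p = 5.84e-11). *Hoxa10* had 89.6, 87.9 and 104 CPM in the controls and 356, 336 and 352 CPM in the T1 mutants, a log2 fold change of 1.90 (SE 0.07).

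*Hoxa5* had 32.8, 32.0 and 39.3 CPM in the controls and 269, 255 and 239 CPM in the T1 mutants of E18.5. *Hoxa6* had 7.52, 6.51 and 7.61 CPM against 53.7, 56.1 and 53.6 CPM. Their log2 fold changes were 2.88 and 2.92 (SE 0.09 each), so this neighbouring pair rose by nearly equal factors. Over the 12 sorted Six2 libraries the log2 CPM of *Hoxa5* and *Hoxa6* had a Pearson's r of 0.997, a description over libraries that share their genotype and stage groups.

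*Hoxa9*, the Hoxa gene best known from leukaemia, had 57.8, 62.1 and 81.1 CPM in the controls and 266, 282 and 267 CPM in the T1 mutants, a log2 fold change of 2.02 (SE 0.11). *Hoxa7* rose by a log2 fold change of 1.84 (SE 0.10). The 3′ genes rose as well: *Hoxa3*, which acts in the pharyngeal arches, had a log2 fold change of 2.16 (SE 0.11), and *Hoxa2*, a hindbrain and arch gene, 1.74 (SE 0.14). *Hoxa4*, a gene of the cervical axis, had the smallest change of the 10, with 2.70, 3.44 and 5.06 CPM in the controls, 8.23, 9.38 and 8.72 CPM in the mutants and a log2 fold change of 1.24 (SE 0.19). Its groups did not overlap, nor did those of the other 9 genes, while 17.4% of tested genes were separated in this direction.

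At E18.5 *Hoxa13* stood at 0, 13 and 7 counts in the controls and at 709, 414 and 540 counts in the T1 mutants, or 5.19 to 7.71 CPM. The ratio of the summed counts, scaled to depth, was 76.9 (95% exact interval 49.6 to 126). A library with 0 counts allowed a level of up to 0.0379 CPM at E18.5 and up to 0.0214 CPM at E14.5, taking 3 counts as the limit.

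**Figure D2:**
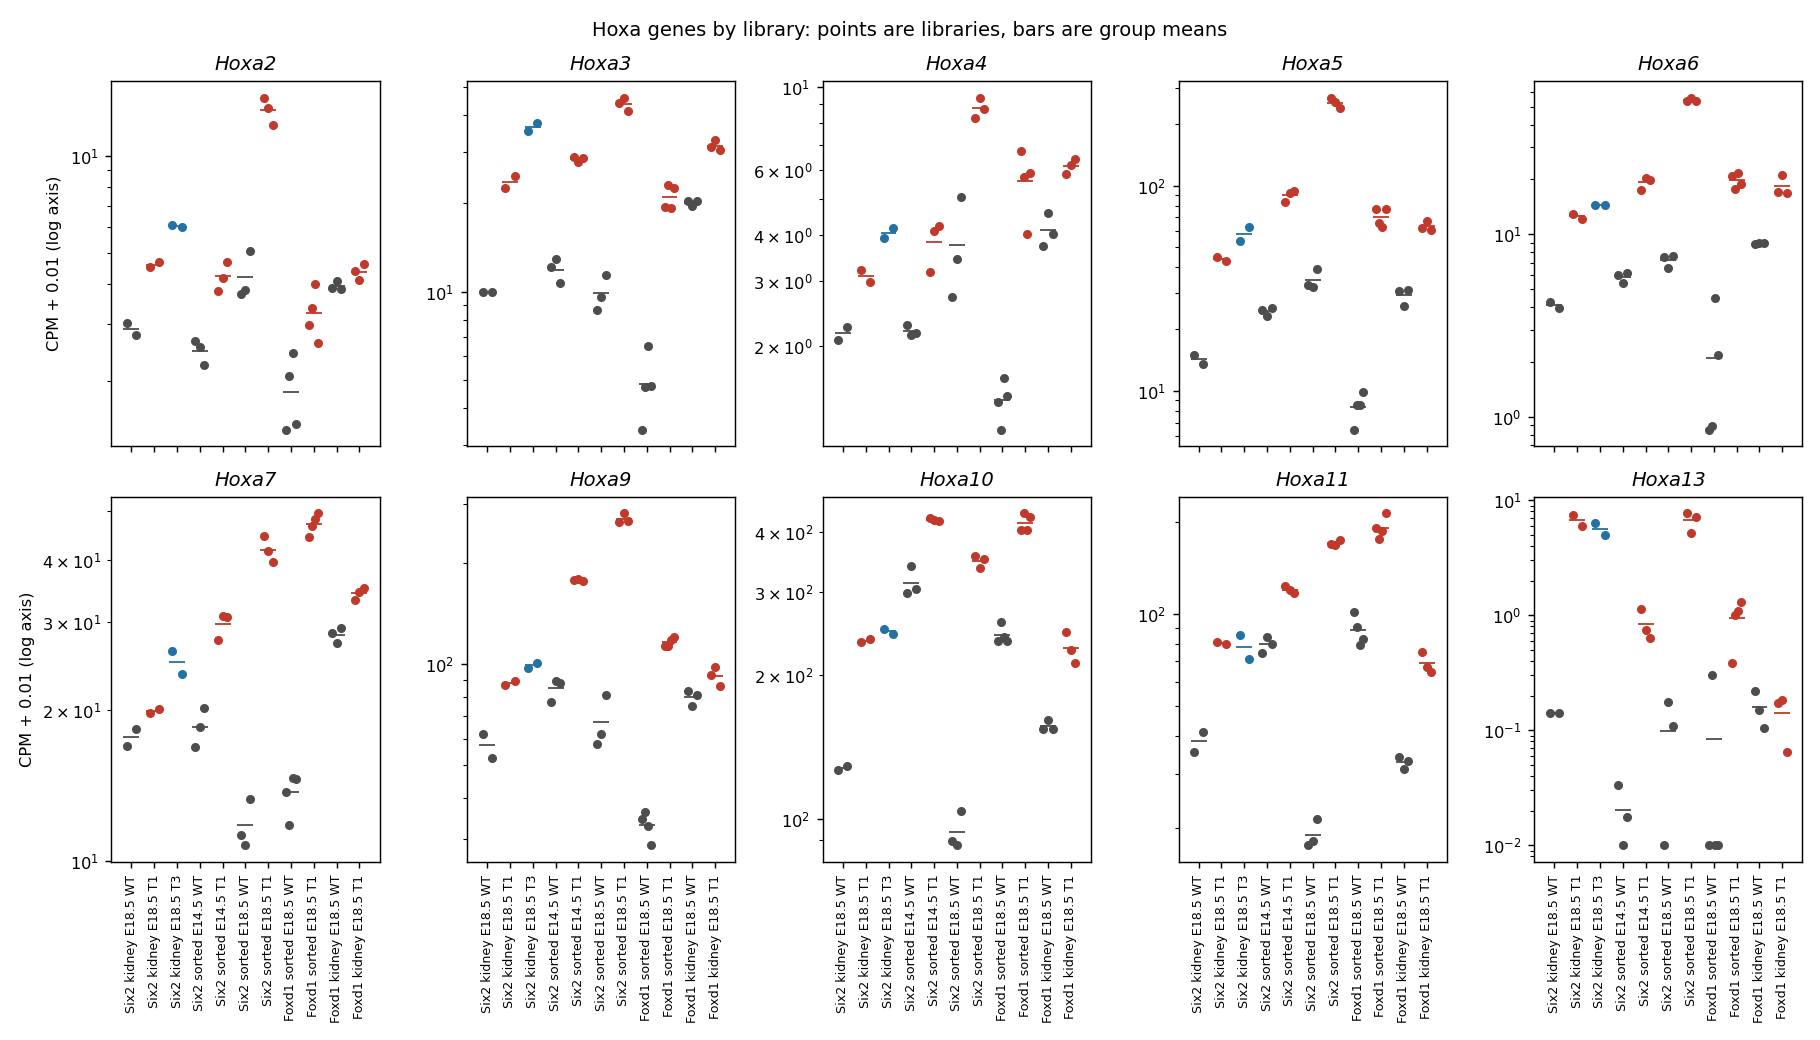
CPM of each Hoxa gene in every library (log axis, 0.01 added so that libraries at 0 are drawn), with 1 panel per gene, 1 column per group, points for libraries and bars for group means. Controls are grey, T1 mutants red and T3 mutants blue; in sorted Six2 cells of E18.5 the mutant points of all 10 genes lie above the control points.

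Markers of other cells moved with genotype in the sorted Six2 cells. Of the 4 red cell genes, 3 were called higher in Six2-ENL-T1 of E18.5, and their sum was 71.1 to 134 CPM in the controls and 1014 to 1444 CPM in the T1 mutants. At E14.5 the same sum was 0.624 to 68.7 CPM in the controls and 40.5 to 70.2 CPM in the T1 mutants. The sum of the 5 macrophage markers at E18.5 was 30.5 to 33.8 CPM in the controls and 54.7 to 67.4 CPM in the T1 mutants. The 8 stroma markers summed to 436 to 600 CPM against 858 to 1764 CPM at E14.5, and to 317 to 557 CPM against 786 to 909 CPM at E18.5. Single stroma markers went both ways, with 6 called higher and 1 lower at E14.5, and 5 higher and 2 lower at E18.5. The 5 nephron progenitor markers, of which 4 were called lower at both stages, summed to 422 to 547 CPM in controls and 181 to 235 CPM in mutants at E18.5, and to 1459 to 1699 CPM and 762 to 950 CPM at E14.5. The 10 nephron epithelium markers summed to 1324 to 1552 CPM in the controls of E18.5 and to 645 to 857 CPM in the mutants, and at E14.5 to 499 to 611 CPM and 353 to 431 CPM. The 4 neural markers summed to 3.57 to 4.95 CPM against 9.76 to 11.5 CPM at E14.5 and to 5.63 to 6.86 CPM against 34.9 to 36.6 CPM at E18.5. The 4 ureter smooth muscle markers had sums of 172 to 214 CPM in the controls and 112 to 131 CPM in the mutants at E14.5, and of 62.6 to 69.1 CPM and 34.0 to 38.9 CPM at E18.5. These sums do not stand for each marker: 1 was called higher and 1 lower at E14.5, and 2 higher and 1 lower at E18.5. The median log2 fold changes of this list were 1.68 and 0.78. None of the red cell, macrophage, stroma, nephron progenitor or nephron epithelium markers was at 0 in every library. Their part in the Hoxa differences was not tested.

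Between E14.5 and E18.5 in ENL-WT cells, 2 of the 10 genes were called lower, *Hoxa10* and *Hoxa11*, and 0 higher, where 20.6% of 25222 tested genes were called lower and 24.8% higher, so the members' count does not exceed the background. Between stages, calls required a fold change above 2 at an adjusted p below 0.01. By the study's methods, kidneys of E14.5 were dissociated with trypsin and those of E18.5, for longer, with collagenase II. Stage and dissociation therefore cannot be told apart in any comparison of the stages. In ENL-WT cells the nephron progenitor sum was 1459 to 1699 CPM at E14.5 and 422 to 547 CPM at E18.5. The nephron epithelium sum was 499 to 611 CPM and 1324 to 1552 CPM, and the part of these markers was not tested.

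*Hoxa10* went from 297 to 339 CPM at E14.5 to 87.9 to 104 CPM at E18.5 in ENL-WT cells. It fell by 1.74 on the log2 scale (SE 0.07; edgeR's quasi-likelihood test, Benjamini-Hochberg adjusted p = 1.71e-11). *Hoxa11* went from 74.3 to 84.3 CPM to 17.5 to 21.3 CPM, and fell by 2.06 (SE 0.07; adjusted p = 5.8e-12 by the same edgeR test). The 3′ genes *Hoxa2* and *Hoxa4* had log2 fold changes of 0.76 and 0.77 between the stages, and *Hoxa5* and *Hoxa6* of 0.51 and 0.30, all under the fold threshold. *Hoxa7*, *Hoxa9* and *Hoxa3* had values of -0.66, -0.34 and -0.27. *Hoxa13*, with 4 counts in all at E14.5 and 20 at E18.5, had a log2 fold change of 2.99 (SE 0.97; edgeR's quasi-likelihood test, Benjamini-Hochberg adjusted p = 0.013) and was not called, but was called with DESeq2, with edgeR's exact test, without the low-count filter, and without ENL-WT replicate 1 of either stage.

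Over the 9 genes without *Hoxa13*, the change between stages in ENL-WT cells had a Spearman's rho of -0.85 with the order along the cluster. This is a description over genes that share their libraries, and the same changes had a rho of -0.83 with the level at E14.5, so order and level cannot be told apart here.

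The Six2-ENL-T1 cells differed in this course. Between E14.5 and E18.5, 5 of the 10 genes were called higher in them, *Hoxa2*, *Hoxa4*, *Hoxa5*, *Hoxa6* and *Hoxa13*, where 24.4% of tested genes were called higher, and 0 were called lower, where the share was 19.8%. *Hoxa10* had 422 to 428 CPM at E14.5 and 336 to 356 CPM at E18.5, a log2 fold change of -0.29 (SE 0.07). *Hoxa11* had 117 to 123 CPM at E14.5 and 168 to 175 CPM at E18.5, a log2 fold change of 0.51 (SE 0.07). *Hoxa5* went from 83.0 to 94.4 CPM to 239 to 269 CPM, a 2.83-fold rise.

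The difference between stages in the mutant effect was tested itself, as an interaction. It was called for 8 of the 10 genes, all with the larger effect at E18.5, where 3.94% of 25222 tested genes were called in this direction at an adjusted p under 0.05. *Hoxa11* had the largest interaction, 2.57 on the log2 scale (SE 0.10; edgeR's quasi-likelihood test, Benjamini-Hochberg adjusted p = 4.78e-09), and *Hoxa10* came next with 1.45 (SE 0.10). The values of *Hoxa2*, *Hoxa3*, *Hoxa5*, *Hoxa6*, *Hoxa7* and *Hoxa9* lay between 0.89 and 1.20. *Hoxa4* was not called (0.43, 95% interval -0.16 to 1.03). *Hoxa13* was not called either (0.03, 95% interval -0.70 to 0.76), and its sign turned under some of the other settings. The red cell marker sum stood apart between genotypes at E18.5 and overlapped at E14.5, but 0 of the 4 red cell markers were called in the interaction. Of the 10 nephron epithelium markers 3 were called higher and 1 lower. Markers called lower were 2 of 5 for nephron progenitors, 2 of 8 for stroma and 2 of 5 for endothelium. Among macrophage markers 1 of 5 was called higher, and 1 of 2 tested neural markers. The part of these markers in the Hoxa interaction was not tested.

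**Figure D3:**
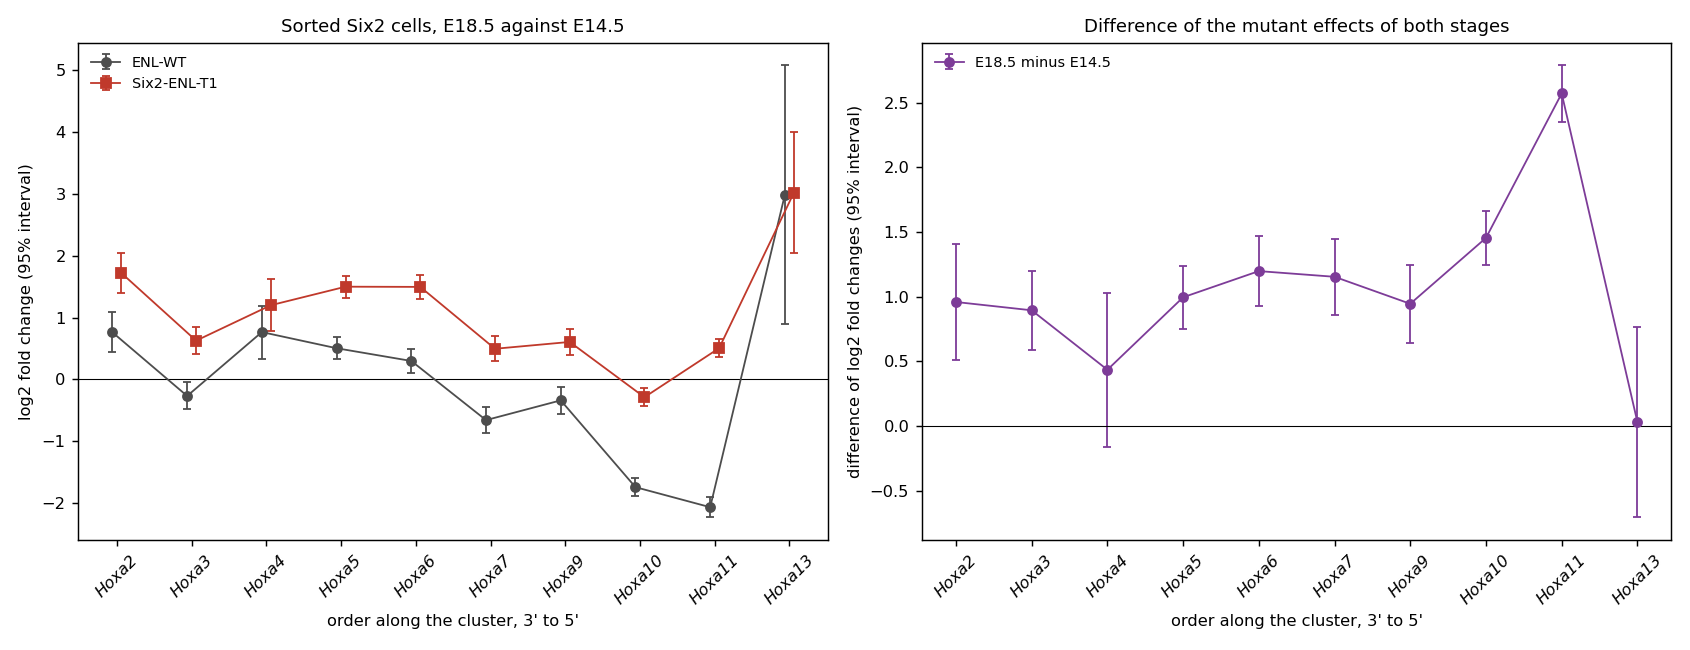
Left, log2 fold change from E14.5 to E18.5 in ENL-WT (grey) and Six2-ENL-T1 (red) sorted Six2 cells for each Hoxa gene in cluster order; right, the difference of the mutant effects of both stages. Error bars are 95% intervals; *Hoxa11* lies at -2.06 in controls and 0.51 in mutants, and its difference of 2.57 is the largest of the 10.

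Over the 12 sorted Six2 libraries, the log2 CPM of *Hoxa10* and *Hoxa11* had a Pearson's r of 0.952, and that of *Hoxa2* and *Hoxa4* had 0.976. *Hoxa4* and *Hoxa10*, 5 places apart, had 0.17. These values describe libraries that share 4 groups and carry no test.

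In sorted Foxd1 cells of E18.5, 8 of the 10 genes had enough counts to be tested, and all 8 were called higher in Foxd1-ENL-T1, where 3.63% of 12717 tested genes were called higher. The median log2 fold change was 1.88 over these 8 genes and 0.00 over all tested genes. *Hoxa4* and *Hoxa6*, with 4 to 5 and 3 to 11 counts in the controls, passed the low-count filter through the mutant libraries, so the count and the median over the tested genes are descriptions. The summed level of the 10 genes was 397 ± 14.2 CPM in the controls and 895 ± 31.6 CPM in the T1 mutants (SD, n = 4).

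*Hoxa6* had the largest change among the tested genes, from 3, 3, 11 and 6 counts in ENL-WT to 56, 53, 60 and 58 counts in Foxd1-ENL-T1. Its log2 fold change was 3.35 (95% interval 2.70 to 3.99). *Hoxa5* had 6.45, 8.54, 8.54 and 9.84 CPM in the controls and 76.7, 65.7, 63.2 and 76.6 CPM in the T1 mutants. It rose by 3.09 on the log2 scale (SE 0.14; edgeR's quasi-likelihood test, Benjamini-Hochberg adjusted p = 5.84e-11), with no overlap between genotypes.

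Among the 8 tested genes *Hoxa10* and *Hoxa11* had the smallest changes. *Hoxa10* had 237, 259, 241 and 236 CPM in the controls and 403, 438, 404 and 430 CPM in the T1 mutants, a log2 fold change of 0.78 (SE 0.07). *Hoxa11* had 101, 90.8, 79.3 and 82.8 CPM in the controls and 190, 175, 187 and 213 CPM in the T1 mutants, a log2 fold change of 1.10 (SE 0.09). Neither gene overlapped between genotypes.

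*Hoxa3* rose by 2.15 on the log2 scale (SE 0.20), *Hoxa4* by 1.96 (SE 0.32), *Hoxa9* by 1.80 (SE 0.09) and *Hoxa7* by 1.79 (SE 0.12). *Hoxa2* had 4 to 7 counts in the controls and 8 to 11 counts in the T1 mutants and was not tested in these cells. *Hoxa13* had 1 count in 1 of 4 ENL-WT libraries and 1, 3, 3 and 4 counts in Foxd1-ENL-T1, so that the ratio of the summed counts was 11.6 with a 95% exact interval of 1.69 to 501. The other 3 ENL-WT libraries had 0 counts, which allows up to 0.841 to 1.22 CPM. For the 8 tested genes the genotypes did not overlap, a pattern seen in 8.14% of all tested genes in this direction. The CPM of *Hoxa2* did not overlap either, and for *Hoxa13* the highest control and the lowest mutant library held 1 count each and differed in depth alone.

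Macrophage marker sums were 63.8 to 154 CPM in the controls and 152 to 214 CPM in the T1 mutants, with 4 of 5 markers called higher. The stroma marker sums overlapped, at 6869 to 9539 CPM in the controls and 7164 to 8076 CPM in the T1 mutants, and the red cell sums overlapped as well. The part of the macrophage markers in the Hoxa differences was not tested.

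**Figure D4:**
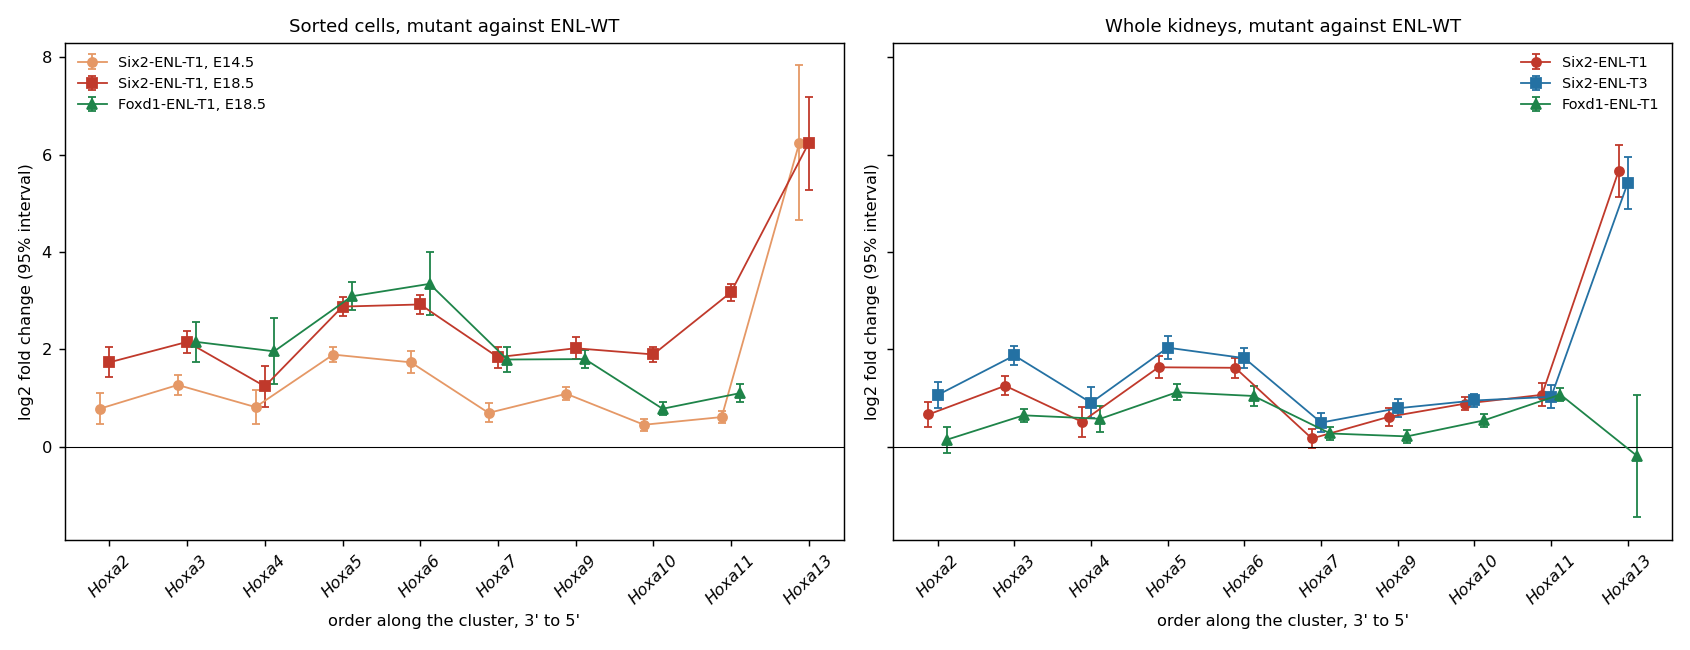
Log2 fold change of mutant over ENL-WT for each Hoxa gene in cluster order, in sorted cells (left) and whole kidneys (right), with 95% intervals as error bars. *Hoxa5* stands above each tested gene on its 3′ side in each of the 6 series of points; *Hoxa2* and *Hoxa13* are missing for sorted Foxd1 cells, where they were not tested.

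Sorted Six2 and Foxd1 cells of E18.5 were compared in 1 fit of 14 libraries. The mutant effect differed between the lineages for 2 of the 10 genes, both with the smaller effect in Foxd1 cells, where 7.63% of 14869 tested genes were called in this direction. *Hoxa11* had a difference of -2.09 (SE 0.13; edgeR's quasi-likelihood test, Benjamini-Hochberg adjusted p = 3.2e-10) and *Hoxa10* of -1.13 (SE 0.10; adjusted p = 4.98e-08 by the same edgeR test). For *Hoxa5* the difference was 0.20 (95% interval -0.17 to 0.57), for *Hoxa7* it was -0.06 (95% interval -0.38 to 0.25), and for *Hoxa9* it was -0.24 (95% interval -0.55 to 0.07). The interval of *Hoxa13*, -7.88 to 2.42, was too wide to place the difference. Leaving out 1 library added a call for *Hoxa6* (1.03 without Foxd1 ENL-WT replicate 3) and for *Hoxa9* (-0.40 without Six2 ENL-WT replicate 3).

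The 2 genes whose effects differed were those whose control levels differed most in absolute terms, but not as ratios. By ratio the control level of *Hoxa5*, whose effect difference was not called, differed by more than that of *Hoxa10*. *Hoxa5* had 6.45 to 9.84 CPM in ENL-WT Foxd1 cells and 32.0 to 39.3 CPM in ENL-WT Six2 cells. *Hoxa10* stood at 236 to 259 CPM in ENL-WT Foxd1 cells and 87.9 to 104 CPM in ENL-WT Six2 cells, and *Hoxa11* at 79.3 to 101 CPM and 17.5 to 21.3 CPM. In the mutants *Hoxa11* stood at 175 to 213 CPM in Foxd1 cells and 168 to 175 CPM in Six2 cells. The tables of both lineages were normalised separately, and lineage and sequencing run cannot be told apart.

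In whole Six2 kidneys of E18.5, 8 of the 10 genes were called higher in Six2-ENL-T1, where 2.88% of 23931 tested genes were called higher, and 9 in Six2-ENL-T3, where the share was 4.34%. Both mutants were compared with the same 2 ENL-WT libraries. *Hoxa7* was the gene called in neither, with 17.0 and 18.3 CPM in the controls, 19.7 and 20.1 CPM with T1, and 26.3 and 23.6 CPM with T3. *Hoxa4* was called with T3 (0.91, SE 0.13) and not with T1 (0.52, SE 0.13, and called at 0.60 without ENL-WT replicate 2), and the difference between the mutants was not called.

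*Hoxa3* had 9.92 CPM in both controls, 22.5 and 24.8 CPM with T1, and 35.3 and 37.5 CPM with T3. Its log2 fold change over ENL-WT was 1.25 (SE 0.08) with T1 and 1.88 (SE 0.08) with T3. The 3 genotypes did not overlap. *Hoxa6* had 550 and 600 counts in the controls, 2043 and 1436 with T1 and 1547 and 1633 with T3, with log2 fold changes of 1.62 and 1.82 (SE 0.09 each). *Hoxa10* had 126 and 129 CPM in the controls, 235 and 238 CPM with T1, and 251 and 244 CPM with T3. For all 10 genes both mutants lay above both controls, as did 25.4% of tested genes with T1 and 27.0% with T3.

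*Hoxa13* had 17 and 20 counts in the controls, 1170 and 701 counts with T1, and 682 and 561 counts with T3. The ratios scaled to depth were 51.9 (95% exact interval 37.5 to 73.9) and 43.1 (95% exact interval 31.1 to 61.4). Leaving out 1 library ended the call of *Hoxa2* (0.65 without Six2-ENL-T1 replicate 2) and of *Hoxa9* (0.52 without ENL-WT replicate 2) in Six2-ENL-T1. In these whole kidneys the nephron progenitor marker sum was 131 to 153 CPM in the controls, 79.0 to 80.5 CPM with T1, and 64.7 to 79.7 CPM with T3. Of the 5 macrophage markers 4 were called higher with either allele, and their sum was 80.2 to 83.8 CPM in the controls, 107 to 116 CPM with T1, and 110 to 122 CPM with T3. The 5 skeletal muscle markers summed to 4.79 CPM in 1 control and 49.9 CPM in the other. With T1 their sum was 4.43 to 4.57 CPM and with T3 5.63 to 7.32 CPM, with 3 and 1 of the 5 called lower. The nephron epithelium sum was 1969 to 2195 CPM in the controls, 1426 to 1486 CPM with T1, and 1273 to 1389 CPM with T3. The sums of the ureteric tree (558 to 673 CPM in the controls), urothelium (54.3 to 54.6 CPM) and ureter smooth muscle markers (152 to 184 CPM) were also lower in every mutant library, at 325 to 416, 25.9 to 34.3 and 81.8 to 98.2 CPM, and the neural sum (5.61 to 6.05 CPM) was higher, at 8.78 to 10.4 CPM. The part of these markers in the Hoxa differences was not tested.

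The mutants were also compared with each other, and 0 of the 10 genes were called with edgeR's quasi-likelihood test, where 0.00418% of tested genes (1 gene) were called and 1720 genes had an unadjusted p under 0.05. *Hoxa3* had the largest difference, Six2-ENL-T3 minus Six2-ENL-T1, of 0.62 (95% interval 0.43 to 0.81; Benjamini-Hochberg adjusted p = 0.299 with edgeR's quasi-likelihood test). It was called with DESeq2, with edgeR's exact test and without the low-count filter. The difference was 0.40 for *Hoxa2* and for *Hoxa5*, 0.06 for *Hoxa10* (95% interval -0.07 to 0.19), -0.04 for *Hoxa11* and -0.24 for *Hoxa13*. Over the 10 genes it had a Spearman's rho of -0.93 with the order along the cluster, with higher values in Six2-ENL-T3 at the 3′ end. This describes 10 genes measured in the same 4 libraries and carries no test. Both Six2-ENL-T1 libraries had *Ddx3y*, a Y-linked gene, at 122 and 126 CPM and both Six2-ENL-T3 libraries had it at 0, so mutation and sex of the embryo cannot be told apart.

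**Figure D5:**
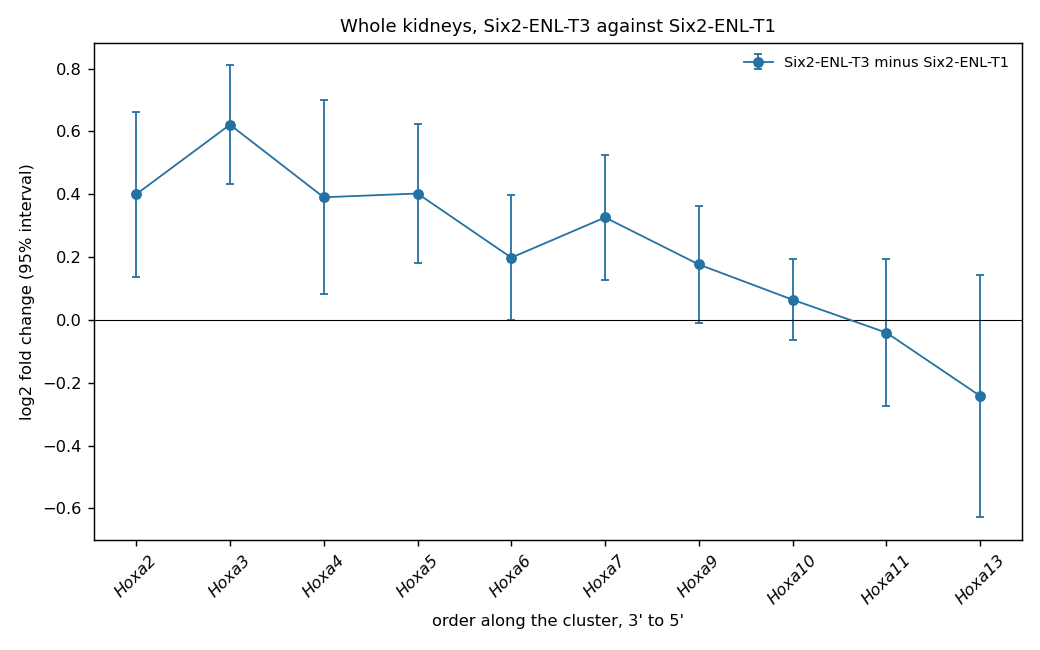
Difference in log2 level between Six2-ENL-T3 and Six2-ENL-T1 whole kidneys for each Hoxa gene in cluster order, with 95% intervals as error bars and 2 libraries per genotype. The points fall from 0.62 at *Hoxa3* to -0.24 at *Hoxa13*.

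In whole Foxd1 kidneys of E18.5, 4 of the 10 genes were called higher in Foxd1-ENL-T1, where 2.65% of 20145 tested genes were called higher. These were *Hoxa3*, *Hoxa5*, *Hoxa6* and *Hoxa11*. *Hoxa5* had 30.7, 25.9 and 31.1 CPM in the controls and 62.2, 67.6 and 61.0 CPM in the T1 mutants, a log2 fold change of 1.12 (SE 0.07; edgeR's quasi-likelihood test, Benjamini-Hochberg adjusted p = 2.06e-07). *Hoxa11* had 34.1, 31.0 and 33.0 CPM in the controls and 74.8, 67.2 and 64.5 CPM in the T1 mutants, a log2 fold change of 1.07 (SE 0.07). In both genes all mutant libraries stood above all controls.

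*Hoxa4*, *Hoxa7*, *Hoxa9* and *Hoxa10* also had an adjusted p under the threshold, with log2 fold changes of 0.22 to 0.58 that missed the fold threshold. Leaving out 1 library brought *Hoxa4* past it (0.67 without ENL-WT replicate 2 and 0.62 without Foxd1-ENL-T1 replicate 1), and *Hoxa10* (0.60 without Foxd1-ENL-T1 replicate 3). *Hoxa2* had 0.15 (95% interval -0.12 to 0.41). *Hoxa13* had 16, 11 and 7 counts in the controls and 11, 13 and 4 counts in the T1 mutants, and the groups overlapped. The ratio of its summed counts was 0.877 (95% exact interval 0.512 to 1.49). The other 9 genes did not overlap between genotypes, as was the case for 23.0% of tested genes in this direction. Of 5 nephron progenitor markers 3 were called higher, with sums of 256 to 278 CPM in controls and 391 to 492 CPM in mutants. The 6 ureteric tree markers summed to 706 to 829 and 464 to 515 CPM, with 1 called higher and 1 lower. Ureter smooth muscle sums were 137 to 159 and 90.1 to 110 CPM, with 2 of 4 markers called lower. Urothelium sums were 51.2 to 63.5 and 45.8 to 50.5 CPM, also with 2 of 4 lower. Nephron epithelium sums were 1862 to 1963 and 1554 to 1827 CPM, and neural sums 7.82 to 8.93 and 5.25 to 6.74 CPM. Endothelium sums were 723 to 764 and 619 to 705 CPM, and red cell sums 1865 to 2296 and 1701 to 1848 CPM. Stroma, macrophage and skeletal muscle sums overlapped. The part of all these lists in the Hoxa differences was not tested.

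The effect in whole kidneys differed between the Cre lines for 6 of the 10 genes, each with the smaller effect in Foxd1 kidneys, where 3.55% of 22826 tested genes were called in this direction. *Hoxa13* had the largest difference, -5.86 on the log2 scale (SE 0.55; edgeR's quasi-likelihood test, Benjamini-Hochberg adjusted p = 2.76e-05). *Hoxa3*, *Hoxa5*, *Hoxa6*, *Hoxa9* and *Hoxa10* had differences of -0.36 to -0.62. *Hoxa11* had -0.01 (95% interval -0.27 to 0.25). With 1 library left out the number called was 2 to 5: it was 2 without Six2-ENL-T1 replicate 1, and 3 without Six2-ENL-T1 replicate 2, without Foxd1 ENL-WT replicate 1 or 3, or without Foxd1-ENL-T1 replicate 3. Cre line and sequencing run cannot be told apart.

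Reads were counted without regard to strand, so a member and an antisense gene over the same bases cannot be told apart there. *Hoxa11* shares 34.98% of its exon bases with *Hoxa11os*, *Hoxa3* 27.1% with *Gm28308*, *Hoxaas2*, *Hoxaas3*, *5730596B20Rik* and *Gm29430*, *Hoxa7* 20.4% with *Hoxaas3*, *Hoxa4* 16.0% with *Gm29430*, *Hoxa2* 15.0% with *Gm28308*, and *Hoxa9* 1.52% with *Mir196b*. *Hoxa5*, *Hoxa6*, *Hoxa10* and *Hoxa13* share none. *Gm28308* and *Mir196b*, on the same strand as the members and with exons almost wholly within theirs, had 0 counts in every library. Reads over those bases were therefore not counted for both genes. The overlap setting of the counting is not stated.

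Of the 15 other annotated genes between *Hoxa2* and *Hoxa13*, 9 were tested in sorted Six2 cells of E18.5. All 9 were called higher in Six2-ENL-T1, where 6.14% of all tested genes were. At E14.5, 4 of 9 were called higher (4.11% of all), and in sorted Foxd1 cells 3 of 3 (3.63% of all). Some of these genes, such as *9530018H14Rik* at E18.5, passed the low-count filter through the mutant libraries, so the counts are descriptions. *Hoxa11os*, an antisense RNA, had 10.5 to 12.1 CPM in the controls and 69.5 to 80.0 CPM in the T1 mutants of E18.5, with a log2 fold change of 2.74 (SE 0.09), and it was called higher in each of the 6 comparisons of a mutant with ENL-WT. In the stage comparison of ENL-WT cells it fell by 1.92 (SE 0.07), as its partner *Hoxa11* fell by 2.06. The transcript *9530018H14Rik*, between *Hoxa11* and *Hoxa13*, had 0 to 12 counts in the controls and 351 to 568 counts in the T1 mutants of E18.5, a log2 fold change of 5.60 (SE 0.46).

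Outside the cluster the nearest protein-coding genes were *Skap2* on the 3′ side and *Evx1* on the 5′ side. *Skap2*, an adaptor of immune cell signalling, was lower in Six2-ENL-T1: it had 35.7 to 41.2 CPM in the controls and 16.2 to 20.1 CPM in the T1 mutants of E18.5, and fell by 1.09 on the log2 scale (SE 0.10; edgeR's quasi-likelihood test, Benjamini-Hochberg adjusted p = 3.62e-06). At E14.5 it fell by 0.71 (SE 0.06). *Skap2* was not called in Foxd1 cells (-0.26, SE 0.12) or in the 3 whole-kidney comparisons with ENL-WT. *Evx1* had 0 to 11 counts per library and was not tested.

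Over the 12 sorted Six2 libraries, the genes outside the cluster whose log2 CPM was most like the mean standardised level of the 10 members included *Cdh8* (Pearson's r 0.992), *Hoxd10* (0.986), *Hoxd8* (0.980) and *Cnmd* (0.978). *Cnmd*, which encodes the cartilage protein chondromodulin, had 0.591 ± 0.231 CPM in the controls and 10.5 ± 0.974 CPM in the mutants at E14.5, and 0.643 ± 0.0836 and 49.1 ± 2.72 CPM at E18.5 (SD, n = 3). Among the members themselves *Hoxa9* was nearest to the mean (0.992) and *Hoxa10* furthest from it (0.666). These genes were picked for their likeness, which therefore carries no test.

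The DNA-binding partners of HOX proteins were examined beside the cluster. Of the 9 TALE homeodomain genes, 1 was called higher at E14.5 in sorted Six2 cells (4.11% of all tested genes), and 1 higher and 1 lower at E18.5 (6.14% and 5.54% of all), with a median log2 fold change of 0.17 over the list against 0.02 over all genes. *Meis1*, a cofactor of *Hoxa9*, rose by 0.64 (SE 0.08) at E14.5 and by 1.26 (SE 0.11) at E18.5, and *Pknox2* fell by 0.75 at E18.5 (SE 0.10). In Foxd1-ENL-T1 cells *Meis2* rose by 0.85 (SE 0.08). In whole Six2 kidneys 0 of the 9 were called higher in either mutant. Between E14.5 and E18.5 in ENL-WT cells 1 of the 9 was called higher and 4 lower (24.8% and 20.6% of all tested genes), with *Meis1* at -1.97 (SE 0.10).

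Of 10 genes of the programme in which the Hox11 paralogues act in the metanephric mesenchyme, 3 were called higher and 4 lower in Six2-ENL-T1 cells of E18.5 (list median -0.45), where 6.14% and 5.54% of all tested genes were called. At E14.5, 0 were called higher and 4 lower (list median -0.35), against 4.11% and 2.28% of all. This list shares Six2 and Eya1 with the nephron progenitor markers. *Osr1*, an early mesenchyme regulator, fell by 1.76 on the log2 scale at E18.5 (SE 0.15), and Six2 itself fell by 1.29 (SE 0.11). *Wnt4*, which drives the epithelial transition, rose by 0.82 (SE 0.07). In Foxd1-ENL-T1 cells 3 were called higher and 1 was called lower, *Gdnf*, at -1.05 (SE 0.15), against 3.63% and 2.18% of all tested genes.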

How the data were processed

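Counts per gene were deposited by the authors as whole numbers for 32 libraries. The authors aligned paired reads to mm10 with HISAT2 and counted them with HTSeq, unstranded and with no minimum alignment quality. Whole-kidney libraries used the KAPA Stranded kit and sorted-cell libraries SMART-Seq. Groups and replicate numbers came from the sample titles. Symbols and exons were taken from GENCODE vM21 on GRCm38, which held 55536 of 55806 identifiers, and upstream windows from RefSeq; the annotation behind the counts may differ. The 4 tables were normalised separately for the levels printed.

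Counts were tested with edgeR 4.0.16 in R 4.3.3: filterByExpr (minimum count 10, minimum total 15), TMM scaling and the quasi-likelihood test, with Benjamini-Hochberg adjustment over all tested genes. SE is the absolute log2 fold change divided by the square root of F. The whole Six2 kidneys were fitted together, other genotype comparisons within their own libraries, stage and interactions in joint fits. Calls used the thresholds given in the report. Levels are CPM on TMM-scaled libraries. Ratios of summed counts carry exact 95% intervals that cover counting error only. Scripts were tested on simulated counts. Alternatives were DESeq2 1.42.0, edgeR's exact test, RLE and library-size scaling, other filters and fold thresholds, other sets of libraries, a replicate block, and each library left out. The members, lists and tests were chosen with earlier results of these data known. Named were all 10 members, every gene sharing exons with them or lying between them, the nearest protein-coding gene on each side, at most 2 called genes in each direction per list and comparison, and the 5 genes most like the members' mean. Some genes under this rule are not reported here.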

Additional observations from a re-analysis of the deposited data

Results flagged for a closer look

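A test of the interaction itself showed that the mutant effect differed between E14.5 and E18.5 in sorted Six2 cells for 8 Hoxa genes. The differences, E18.5 minus E14.5 in log2 fold change, were 0.96 for *Hoxa2*, 0.89 for *Hoxa3*, 0.99 for *Hoxa5*, 1.20 for *Hoxa6*, 1.15 for *Hoxa7*, 0.94 for *Hoxa9*, 1.45 for *Hoxa10* and 2.57 for *Hoxa11*. The same kind of test showed a smaller effect in Foxd1 than in Six2 sorted cells for *Hoxa10* (-1.13) and *Hoxa11* (-2.09). In whole kidneys it showed a smaller effect in the Foxd1 line for *Hoxa3* (-0.62), *Hoxa5* (-0.53), *Hoxa6* (-0.60), *Hoxa9* (-0.42), *Hoxa10* (-0.36) and *Hoxa13* (-5.86).

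In the 20 sets of 4 libraries that could be examined for 1 library far from the rest, ENL-WT replicate 2 of the sorted Foxd1 cells stood apart for *Hoxa13*, at 0.295 CPM where the other 3 libraries were at 0. That value is 1 count. By chance about 1 in 20 such sets is picked out.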

How the results depend on the processing

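For the members, 966 values obtained with 1 library left out kept their direction and their side of the threshold, 25 lost the call, 8 gained it and 25 changed sign. Under the other settings, fold thresholds aside, 846 kept both, 10 gained the call and 6 changed sign. *Hoxa13* turned sign in the stage interaction with RLE size factors (-0.0002), without the low-count filter (-0.0188) and with DESeq2 (-0.14), and ran from -1.17 to 0.85 with 1 library left out. *Hoxa11* turned sign between the Cre lines with RLE size factors and with DESeq2 (0.0098 each; -0.15 to 0.13 with 1 library left out), as *Hoxa3* did between lineages without the low-count filter (0.0098; -0.19 to 0.12). With 1 library left out the sign also turned for *Hoxa11* in Six2-ENL-T3 against Six2-ENL-T1 (-0.18 to 0.081), *Hoxa13* in whole Foxd1 kidneys (-0.44 to 0.18), *Hoxa7* and *Hoxa13* between lineages (-0.16 to 0.004 and -3.57 to 2.15) and *Hoxa4* between the Cre lines (-0.045 to 0.13). None of these was called.

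With a fold change over 2, 5 members were called in whole Six2-ENL-T1 kidneys and 5 in sorted cells of E14.5. With no fold threshold, 8 were called in whole Foxd1 kidneys, 8 between stages in controls and 10 in T1 mutants. Between Six2-ENL-T3 and Six2-ENL-T1, 1 was called without the low-count filter, with DESeq2 and with edgeR's exact test. Between the Cre lines 2 to 5 were called with 1 library left out. The cause of the tool and filter changes was not tested.

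Replicate numbers did not pair the libraries: residuals of same-numbered libraries correlated at -0.0791 to 0.139 over 19 pairs. With the replicate block as many members were called in each of the 12 comparisons as without it, 8 for example in whole T1 kidneys. In the stage comparisons the median log2 fold change of all genes was 0.02 (ENL-WT) and 0.07 (T1) with TMM and 0.15 and 0.16 with RLE scaling. By library size alone it was -0.12 in ENL-WT, and 0.11 for T1 against ENL-WT in sorted cells of E18.5. Depth limited *Hoxa2* and *Hoxa13* in sorted Foxd1 cells, where neither was tested.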

Other observations

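The other Hox clusters were measured in the same libraries, with the direction of change per cluster given here as counts. In sorted Six2 cells of E18.5, 8 of 9 tested Hoxb genes, 7 of 7 Hoxc genes and 8 of 8 Hoxd genes were called higher in Six2-ENL-T1 (6.14% of all tested genes), with medians of 1.36, 1.67 and 1.66 against 2.09 over the Hoxa members. At E14.5 the counts were 2 of 9, 7 of 7 and 5 of 8 (4.11% of all). In sorted Foxd1 cells they were 0 of 7 Hoxb, 6 of 7 Hoxc and 2 of 6 Hoxd genes, where 3.63% of all tested genes were called. In whole Foxd1 kidneys 0 of 8 Hoxb, 1 of 7 Hoxc and 2 of 8 Hoxd genes were called higher (2.65% of all). *Hoxd3* was called lower there, at -0.90 (SE 0.17), and the cluster medians were -0.085, 0.14 and -0.26.

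Some 5′ genes of the other clusters are given as examples. In sorted Six2 cells of E18.5, *Hoxc11* rose by 2.58 (SE 0.09) and *Hoxd12* by 3.70 (SE 0.15), and in Foxd1-ENL-T1 cells *Hoxd12* rose by 6.20 (SE 0.18). Between E14.5 and E18.5 in ENL-WT cells *Hoxd12* fell by 3.76 (SE 0.14) and *Hoxd11* by 1.19 (SE 0.08), while *Hoxb8* rose by 4.68 (SE 0.23).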
